A study of Mus musculus with 28 samples.

Results

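Germinal center B cells that carried the ImuBcl6 allele together with a heterozygous D370Y mutation of Tbl1xr1 were set against germinal center B cells with the same D370Y mutation and no ImuBcl6 allele. The set was chosen by library title and holds 10 of the 28 bulk RNA-seq libraries of the series, 5 with ImuBcl6 and 5 without. The 5 ImuBcl6 D370Y libraries have the genotype ImuBCL6, Cg1Cre(+/-), Tbl1xr1(D370Y/WT), and the 5 D370Y libraries have Cg1Cre(+/-), Tbl1xr1(D370Y/WT). Both groups therefore share the Cre allele and the mutated copy of Tbl1xr1 beside a wild-type copy. Cg1Cre expresses Cre from the immunoglobulin gamma 1 constant region locus in B cells that respond to antigen, and ImuBcl6 is a mouse allele that expresses Bcl6 from the I-mu promoter of the immunoglobulin heavy chain locus. Other groups served as points of comparison, namely 5 ImuBcl6 libraries with wild-type Tbl1xr1, 3 WT libraries and 5 Cre control libraries, the last of which carry the same genotype label as WT. Nothing in the labels ties a library to an animal or gives its age, so a p-value here measures variation between samples that could be technical in part.

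BCL6 is a transcriptional repressor that B cells need to form germinal centers, where they mutate their antibody genes and are selected for affinity. It represses enhancers and promoters by recruiting corepressor complexes, among them one that contains the histone deacetylase HDAC3. TBL1XR1 is a subunit of that complex and is mutated in diffuse large B cell lymphoma. Among the genes that BCL6 is known to hold down are the plasma cell regulator Prdm1, the cell cycle inhibitor genes Cdkn1a and Cdkn1b, and DNA damage checkpoint genes.

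The libraries of the 2 groups stood apart in ways that no label explains. Depth, as reads on listed genes in units of 1000000 reads, was 32.0 to 37.7 in the ImuBcl6 D370Y libraries and 19.2 to 22.2 in the D370Y libraries. The ImuBcl6 libraries with wild-type Tbl1xr1 (31.8 to 36.5) and the WT libraries (19.0 to 19.4) were split in the same way. Xist, expressed from the inactive X chromosome, stood at 0.299 to 1.39 CPM (reads of a gene scaled to a fixed library total) in ImuBcl6 D370Y, against 486 to 1460 CPM in D370Y, and the Y-linked Ddx3y at 36.8 to 62.6 CPM in ImuBcl6 D370Y and 0 to 0.344 CPM in D370Y. Without D370Y the arrangement was the opposite, with Xist at 304 to 638 CPM in the ImuBcl6 libraries and at 2.22 to 9.12 CPM in WT. In the comparison of ImuBcl6 D370Y with D370Y the sex of the animals and the ImuBcl6 allele cannot be told apart, and only autosomal genes are counted below. Among B cell markers, the B cell receptor subunit genes Cd79a and Cd79b had medians of 770 and 1658 CPM in ImuBcl6 D370Y and 737 and 1758 CPM in D370Y. Ms4a1, which encodes CD20, was at 935 to 1492 CPM in ImuBcl6 D370Y and 1938 to 2584 CPM in D370Y, and Pax5, a B cell identity factor, at 112 to 128 CPM in ImuBcl6 D370Y and 140.1 to 199 CPM in D370Y. The 5 T cell markers listed in the files summed to 4.47 to 10.6 CPM in ImuBcl6 D370Y and 1.48 to 3.94 CPM in D370Y, most of it Cd3g at a median of 6.57 CPM in ImuBcl6 D370Y and 0.737 CPM in D370Y, while Cd3e had medians of 0.175 CPM in ImuBcl6 D370Y and 0.192 CPM in D370Y. The 14 macrophage and myeloid markers summed to 36.1 to 58.9 CPM in ImuBcl6 D370Y and 41.4 to 57.8 CPM in D370Y, and of the 9 that passed the expression filter 1 was higher and 5 lower. With all libraries thinned to equal reads, 5499 genes were called against 5575 as deposited, and the Bcl6 log2 fold change was 0.36 in both. The part of the sex arrangement and of the T cell and myeloid markers in the results below was not tested. In bulk samples fewer cells of a type and less RNA per cell cannot be told apart.

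Bcl6 RNA was higher with the added allele, and Tbl1xr1 RNA was lower. Bcl6 was present at 435, 462, 422, 512 and 504 CPM in the ImuBcl6 D370Y libraries, against 383, 328, 343, 399 and 360 CPM in the D370Y libraries. No ImuBcl6 D370Y library was as low as any D370Y library, and the log2 fold change on log2(CPM + 1) was 0.36 ± 0.07 (SE; limma adjusted p = 0.000866; exact two-sided permutation p = 0.00794, the smallest that 5 against 5 libraries allow). The deposited Bcl6 value does not separate transcripts of the added allele from those of the endogenous gene. With wild-type Tbl1xr1 the same allele gave 547, 546, 590, 544 and 522 CPM, against 358, 366 and 364 CPM in WT, a log2 fold change of 0.60 ± 0.05 (limma adjusted p = 5.97e-06).

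Tbl1xr1 was present at 97.9, 101.4, 94.7, 98.6 and 98.9 CPM in the ImuBcl6 D370Y libraries, against 165, 140, 141, 135 and 146 CPM in the D370Y libraries. The groups did not overlap, and the log2 fold change was -0.56 ± 0.06 (limma adjusted p = 4.5e-06; exact two-sided permutation p = 0.00794). The Cre control libraries, which have no ImuBcl6 allele, ranged from 80.6 to 94.5 CPM and lay below WT, where Tbl1xr1 was at 156, 171 and 176 CPM. After adjustment for GC content and transcript length, chosen after the data were seen, the Tbl1xr1 difference was -0.09 (limma adjusted p = 0.230) and was no longer called.

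**Figure D1:**
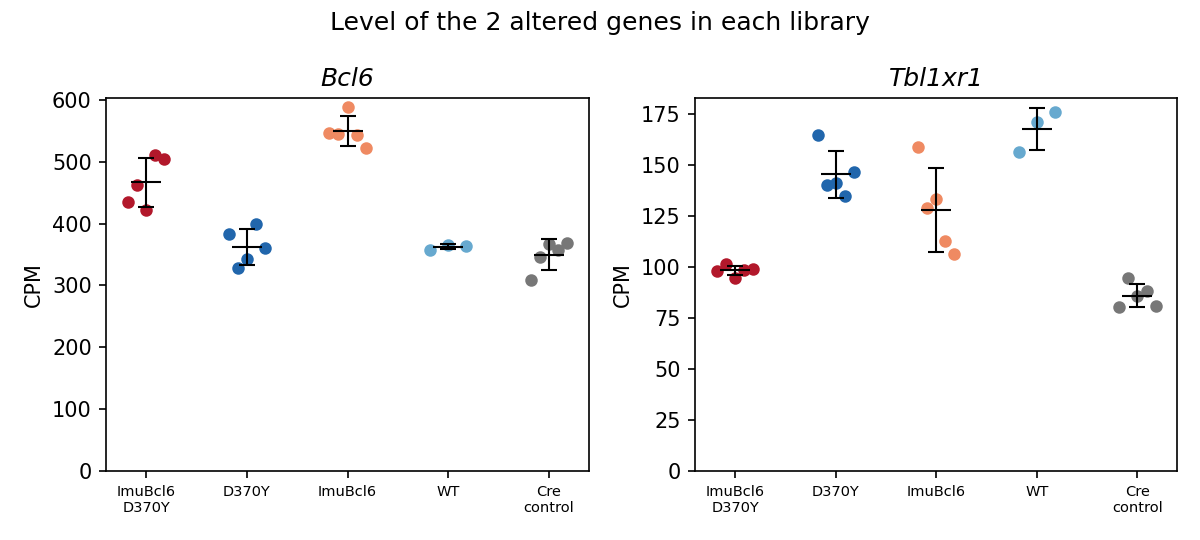
Level of Bcl6 and Tbl1xr1 in CPM (y axis) in every library of 5 groups (x axis); points are libraries, and the bar and whiskers are the mean and SD. The 5 ImuBcl6 D370Y libraries sit between 422 and 512 CPM for Bcl6 and above all 5 D370Y libraries, and between 94.7 and 101.4 CPM for Tbl1xr1 and below all of them.

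Over 50% of the genes tested were called between ImuBcl6 D370Y and D370Y, so the count itself says little about any one gene. Of 10389 autosomal genes with at least 1 CPM in 5 or more of the 10 libraries, 5575 (53.7%) were called at a limma adjusted p under 0.05, with 2273 higher (21.9%) and 3302 lower (31.8%) in ImuBcl6 D370Y. The groups did not overlap at all for 1692 higher genes (16.3%) and 2385 lower genes (23.0%), counted over all genes tested. Higher calls made up 40.8% of the calls, 50.2% after TMM scaling, 55.9% after adjustment for GC content and length and 30.1% among genes of distinct sequence. A gene is said here to be of distinct sequence when no more than 5% of its exons overlap another gene's and no more than 5% of its 50-base windows recur in another gene. The calls also included 447 genes at least 2-fold higher (4.3%) and 199 at least 2-fold lower (1.92%).

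The largest rises were mostly in genes that share exons or sequence with other genes, and most of them were close in size between Cre control and WT, where neither group has ImuBcl6. Snx22 was present at 145 to 185 CPM in ImuBcl6 D370Y and 0.0384 to 0.184 CPM in D370Y, a log2 fold change of 7.22, and its log2 fold change between Cre control and WT was 6.93. Rpl35, a protein of the large ribosomal subunit, was at 90.7 to 115 CPM in ImuBcl6 D370Y and 0.553 to 0.902 CPM in D370Y, with log2 fold changes of 5.84 here and 5.86 between Cre control and WT. The immediate early gene Fos, of distinct sequence, was at 148, 147, 163, 217 and 201 CPM in ImuBcl6 D370Y and at 1.11, 1.26, 0.959, 1.28 and 1.16 CPM in D370Y. Its log2 fold change was 6.34 ± 0.11, and between Cre control and WT it was 5.48.

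Genes that moved by at least 2-fold differed in this by direction. Of the 447 higher genes, 101 (22.6%) were of distinct sequence, against 68.3% of all genes tested, and 365 of the 411 (88.8%) that could be tested were also called higher in Cre control over WT. Of the 199 lower genes, 149 (74.9%) were of distinct sequence and 158 (79.4%) were also called lower in Cre control over WT, and their median GC content was 41.5%, against 49.6% over all genes tested. Among genes of distinct sequence at 31.19% to 43.75% GC, the median log2 fold change was -0.37 here and -1.08 for Cre control over WT. In that comparison of 5 Cre control with 3 WT libraries, added after the data were seen, limma called 7970 of 10335 genes (77.1%), with 38.8% higher and 38.3% lower in Cre control. The ImuBcl6 D370Y and Cre control libraries are separate samples, as are the D370Y and WT libraries. Across 10167 genes the log2 fold changes of the 2 comparisons had a Pearson correlation of 0.728, given as a description, since genes share depth and base composition within a library.

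**Figure D2:**
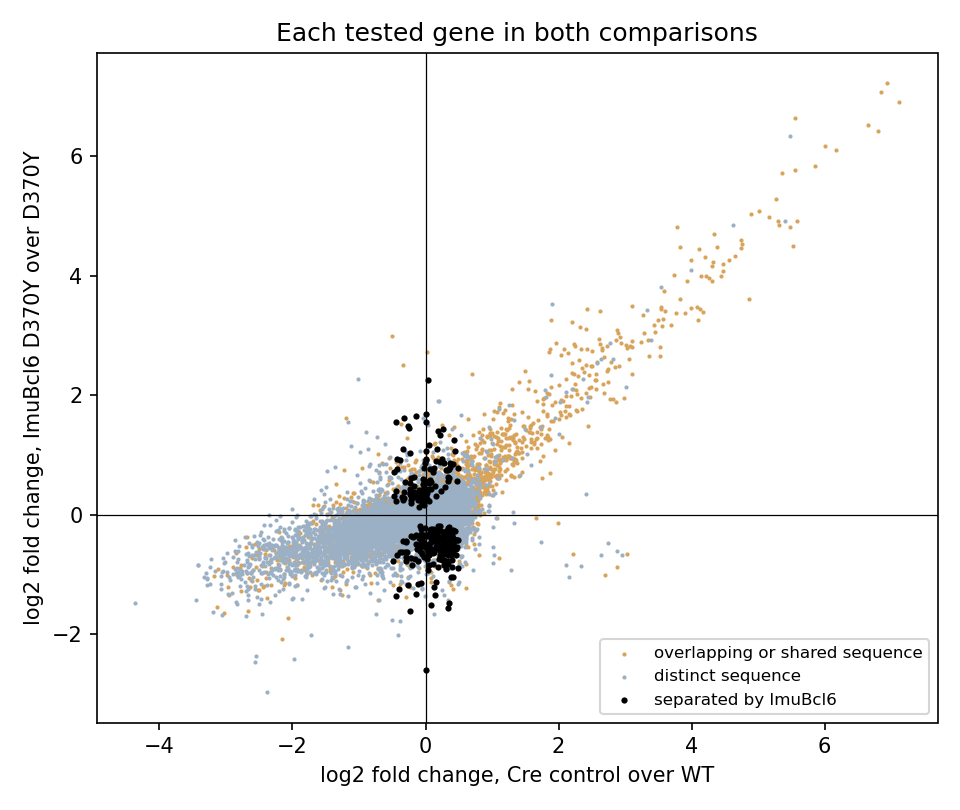
Log2 fold change of ImuBcl6 D370Y over D370Y (y axis) against that of Cre control over WT (x axis) for each gene tested in both; colours mark genes of distinct sequence, genes with overlapping or shared sequence, and genes separated by ImuBcl6. Of the 37 genes that rose above 4 on both axes, 34 have overlapping or shared sequence and Fos, Fndc9 and Zfp385c do not, and the separated genes lie within 0.5 of 0 on the x axis because their rule requires it.

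Of the 12 largest falls at a mean of at least 5 CPM, 10 were of distinct sequence, against 1 of the 12 largest rises. Slc15a2, a peptide transporter, was at 3.76, 1.86, 1.42, 1.76 and 1.89 CPM in ImuBcl6 D370Y and at 21.4, 14.8, 19.2, 32.7 and 31.2 CPM in D370Y. The groups did not overlap, and the log2 fold change of -2.97 ± 0.21 stood beside one of -2.38 between Cre control and WT. The zinc finger genes Zfp760, Zfp943, Zbtb26 and Zfp758 fell by 1.69, 1.68, 1.66 and 1.65 on the log2 scale, and by 2.70, 3.05, 2.46 and 3.03 between Cre control and WT.

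Slpi had the Cre control over WT value nearest 0 among the 12 largest falls. It encodes a secreted inhibitor of serine proteases. Slpi was at 29.0, 23.5, 27.4, 14 and 29.8 CPM in the ImuBcl6 D370Y libraries, against 130, 250, 197, 112 and 107 CPM in the D370Y libraries, with no overlap. Its log2 fold change was -2.60 ± 0.24 (limma adjusted p = 6.57e-07), and that between Cre control and WT was 0.01. In ImuBcl6 cells with wild-type Tbl1xr1 it was at 27.2 to 40.5 CPM, against 94.5 to 159 CPM in WT.

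To describe genes that followed the ImuBcl6 allele and not the difference between Cre control and WT, a rule was chosen after the values were seen. It asked that a gene be called, be of distinct sequence, average at least 5 CPM, differ by at most 0.5 on the log2 scale between Cre control and WT, and not overlap between the 10 libraries with ImuBcl6 and the 13 without it. The 13 are the D370Y, WT and Cre control libraries. Before the other conditions, 3.23% of genes tested lay higher and 2.71% lower in all 10 libraries with ImuBcl6. These genes carry no test, since the rule used all of these values. They numbered 111 higher (1.07% of genes tested) and 185 lower (1.78%), with 19 of the higher and 16 of the lower ones at least 2-fold apart. Bcl6 was itself among the higher ones. After adjustment for GC content and length, 108 of the 111 and 177 of the 185 were still called in the same direction. The rule had already chosen genes called from these same values, so this count is a description and no support for them.

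Examples of separated genes higher with ImuBcl6 follow; they, and those of the lower genes after them, were picked after the values were seen and are no measure of a shared function. Il10, which encodes the anti-inflammatory cytokine interleukin 10, was at 4.61, 9.97, 15.2, 5.48 and 8.65 CPM in ImuBcl6 D370Y and at 1.58, 2.77, 2.42, 1.28 and 2.02 CPM in D370Y. All 5 ImuBcl6 D370Y libraries lay above the D370Y libraries (log2 fold change 1.62 ± 0.24). Irf1, a transcription factor of the interferon response, was at 199, 208, 218, 232 and 207 CPM in ImuBcl6 D370Y and at 123, 112, 93.2, 60.9 and 120 CPM in D370Y. Its log2 fold change was 1.10 ± 0.15, against 1.14 ± 0.14 for ImuBcl6 over WT. Zbp1, an interferon-induced sensor of nucleic acids, was at 76.8 to 95.5 CPM in ImuBcl6 D370Y and 33.2 to 57.4 CPM in D370Y. Hsp90ab1, which encodes a cytosolic HSP90 chaperone, was at 3767 to 4361 CPM in ImuBcl6 D370Y and 2082 to 2563 CPM in D370Y, and its Cre control over WT value of 0.49 lies just inside the limit of 0.5. The Wnt receptor gene Fzd6 had the largest separated rise, at 3.55, 35, 8.76, 46.4 and 13.6 CPM in ImuBcl6 D370Y and 0.405, 1.72, 0.806, 0.234 and 0.0859 CPM in D370Y, and its ImuBcl6 D370Y libraries differed widely among themselves.

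Among the separated genes lower with ImuBcl6, Id3, an inhibitor of E protein transcription factors, was at 34.6, 31.2, 27.6, 29.4 and 38.5 CPM in ImuBcl6 D370Y and at 66.2, 77.3, 87.9, 82.0 and 105 CPM in D370Y. The highest ImuBcl6 D370Y library lay well below the lowest D370Y library, and the log2 fold change was -1.34 ± 0.11, against -1.49 ± 0.10 for ImuBcl6 over WT. Satb1, a chromatin organizer, was at 6.61 to 10.7 CPM in ImuBcl6 D370Y and 18.3 to 29.0 CPM in D370Y. Sdc1, which encodes the plasma cell surface protein syndecan-1, was at 1.91, 2.97, 2.10, 2.84 and 2.48 CPM in ImuBcl6 D370Y and 7.11, 18, 14.4, 7.24 and 4.42 CPM in D370Y. Both receptors for the B cell survival factor BAFF on the costimulation list that passed the expression filter were separated. Tnfrsf13b, encoding TACI, was at 15 to 19.0 CPM in ImuBcl6 D370Y and 21.7 to 32.0 CPM in D370Y, and Tnfrsf13c, encoding the BAFF receptor, at 327 to 414 CPM in ImuBcl6 D370Y and 454 to 611 CPM in D370Y. The Notch-modifying enzyme gene Lfng fell by 1.18 on the log2 scale, the mTORC1 inhibitor gene Ddit4 by 1.16, the antiproliferative gene Btg2 by 0.71 and the transcription factor gene Runx1 by 0.51.

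**Figure D3:**
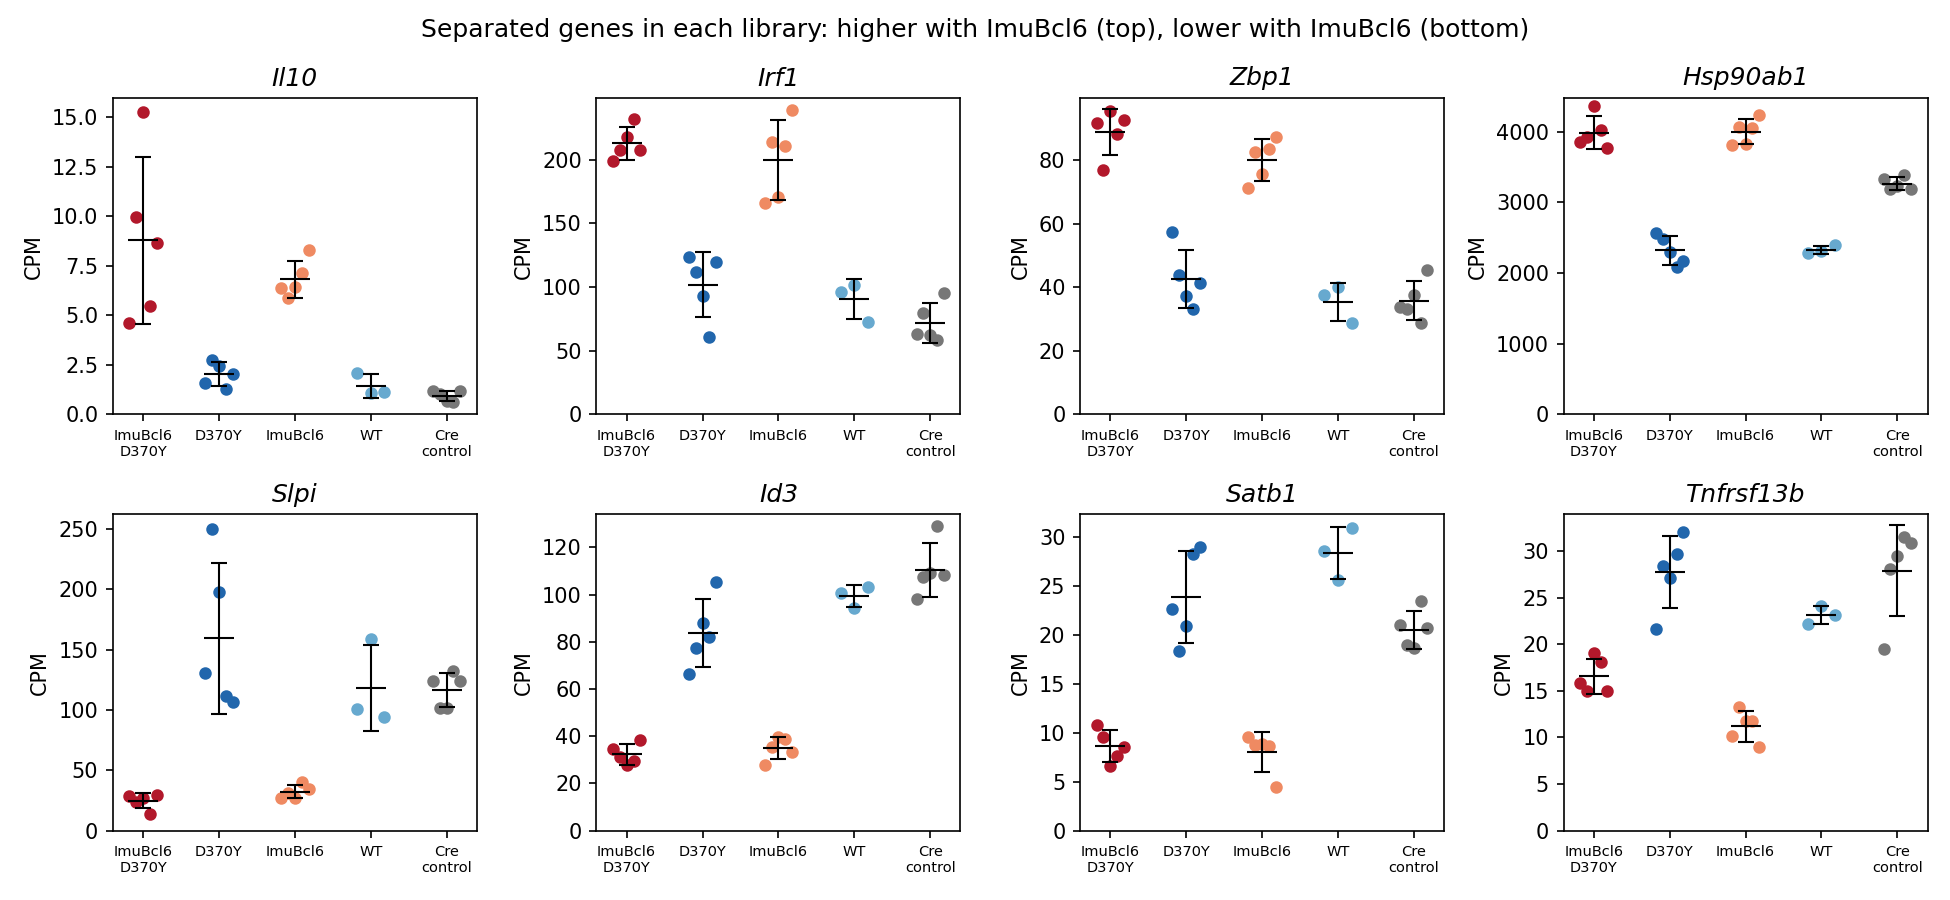
Level in CPM (y axes) of 4 separated genes higher with ImuBcl6 (top row) and 4 lower with ImuBcl6 (bottom row) in every library of 5 groups (x axes); points are libraries, and the bar and whiskers are the mean and SD. In each panel the ImuBcl6 D370Y and ImuBcl6 libraries lie on one side of the D370Y, WT and Cre control libraries because the rule for separated genes requires it.

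Promoter sequence was examined because BCL6 binds DNA at a known motif close to TTCCTAGAA. RefSeq promoter windows on GRCm38.p6, from 250 bases before to 50 after a start site, were found for 150 of the 185 separated lower genes (81.1%). None held TTCCTAGAA on either strand, against 0.454% of the 8378 genes tested that had a window. At so low a share, its absence from 150 genes says little. The looser palindrome TTCNNNGAA was held by 8 (5.33%), against 8.27% of those 8378. Median transcript GC content was 55.6% in the separated lower genes and 49.6% over all genes tested. The motif shares were not matched for base composition, so they cannot be told apart from it. The looser motif reads the same on both strands and contains every match of TTCCTAGAA. Only 87 of the 111 separated higher genes (78.4%) had a window, under the 80% set for such a count, so that count is void for them. Windows are shown for Bcl6, the gene that the added allele expresses, and for Irf1, picked as an example from the separated higher genes. Each covers the 250 bases before the start site. The Bcl6 windows belong to 2 annotated start regions of the endogenous gene and not to the I-mu promoter of the ImuBcl6 allele. Capitals mark matches of TTCNNNGAA, a pattern that STAT proteins are also known to bind. The Bcl6 windows are chr16:23988853-23989102 and chr16:23981284-23981533, both on the minus strand, and the Irf1 window is chr11:53769764-53770013 on the plus strand. A second Irf1 window, chr11:53770223-53770472, holds no match and is not shown. Of the separated lower genes described above, Slpi, Id3, Satb1, Sdc1, Lfng and Ddit4 hold no match in the 250 bases before their start sites.
Bcl6, upstream start: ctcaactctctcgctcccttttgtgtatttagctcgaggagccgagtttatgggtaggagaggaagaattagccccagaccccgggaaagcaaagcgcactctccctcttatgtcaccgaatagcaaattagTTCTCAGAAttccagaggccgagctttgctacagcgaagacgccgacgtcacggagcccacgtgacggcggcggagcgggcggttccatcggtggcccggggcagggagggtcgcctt
Bcl6, downstream start: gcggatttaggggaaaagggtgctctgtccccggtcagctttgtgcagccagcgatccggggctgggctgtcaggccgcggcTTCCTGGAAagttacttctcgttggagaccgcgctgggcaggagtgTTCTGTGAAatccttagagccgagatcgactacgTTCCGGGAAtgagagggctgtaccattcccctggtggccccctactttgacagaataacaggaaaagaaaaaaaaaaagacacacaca
Irf1: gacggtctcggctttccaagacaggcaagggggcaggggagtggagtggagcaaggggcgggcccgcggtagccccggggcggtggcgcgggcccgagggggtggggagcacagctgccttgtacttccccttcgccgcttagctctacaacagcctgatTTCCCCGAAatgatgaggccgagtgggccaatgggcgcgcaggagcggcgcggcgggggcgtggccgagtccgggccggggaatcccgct
The upstream Bcl6 window holds 1 match, the downstream window 3 and the Irf1 window shown 1. A match is a description of the letters and not evidence of binding.

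Gene lists were read against the shares called over all genes, 21.9% higher and 31.8% lower. For some lists, the counts between Cre control and WT are given as well. The median log2 fold change over all genes tested was -0.05. Among corepressor and BCL6 partner genes, 4 of 16 tested were higher and 5 lower, with a median of 0.01. Hdac1, a histone deacetylase gene, rose by 0.46 ± 0.06 and shares sequence with other genes.

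BCL6 repression targets leaned lower in ImuBcl6 D370Y against D370Y. Of 26 tested, 12 were lower and 4 higher, with a median of -0.22, while Cre control over WT had 16 lower, 6 higher and a median of -0.38. Without D370Y, ImuBcl6 over WT had 10 lower, 9 higher and a median of -0.10. Cdkn1b, encoding the cell cycle inhibitor p27, was at 10.6, 10.6, 13.3, 11.3 and 11 CPM in ImuBcl6 D370Y and at 29.3, 22.1, 23.1, 23.7 and 25.1 CPM in D370Y. The groups did not overlap, and the log2 fold change was -1.05 ± 0.09 (limma adjusted p = 2.58e-07). It was -1.46 for ImuBcl6 over WT and -0.64 for Cre control over WT. Prdm1, which encodes the plasma cell regulator BLIMP1, was at 7.52, 16.3, 8.56, 13 and 12.8 CPM in ImuBcl6 D370Y and at 37.7, 30.1, 24.9, 19.4 and 14.5 CPM in D370Y. The groups overlapped for Prdm1, which was called at -1.03 ± 0.23 (limma adjusted p = 0.00187), beside -0.94 for Cre control over WT.

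Chemoattractant receptor genes, which position B cells in the follicle, were the list with the lowest median, at -0.68. Of 9 tested, 8 were lower and none higher. All 8 were without overlap between the groups, against 23.0% of all genes tested that lay lower without overlap. Between Cre control and WT 3 were lower and 3 higher with a median of 0.05. S1pr1, the egress receptor for sphingosine 1-phosphate, was at 36.5, 39.9, 49.2, 39.8 and 35.6 CPM in ImuBcl6 D370Y and at 64.3, 76.1, 65.0, 68.7 and 64.6 CPM in D370Y (-0.74 ± 0.09, limma adjusted p = 6.62e-06). Ccr7, the receptor for T zone chemokines, was at 9.06, 8.82, 8.86, 8.92 and 6.10 CPM in ImuBcl6 D370Y and at 13.4, 18.7, 15, 14.8 and 10.8 CPM in D370Y (-0.72 ± 0.13, limma adjusted p = 0.000413). S1pr4 was at 25.9 to 32.7 CPM in ImuBcl6 D370Y and 36.3 to 50.7 CPM in D370Y, and Cxcr5, the follicle-homing receptor, at 294 to 316 CPM in ImuBcl6 D370Y and 337 to 422 CPM in D370Y. The germinal center receptor S1pr2 was not called, at 0.05. For ImuBcl6 over WT, 5 of the 9 were lower and none higher.

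Germinal center genes were lower in 11 of 18 and higher in none, with a median of -0.27. Between Cre control and WT 11 were also lower, with a median of -0.21. Rgs13, a regulator of G protein signalling, was at 174, 154, 58.4, 58.0 and 121 CPM in ImuBcl6 D370Y and at 278, 300, 298, 263 and 313 CPM in D370Y, a log2 fold change of -1.50 ± 0.26 beside -2.50 for Cre control over WT. Tnfrsf13b and Mef2b, a transcription factor gene of germinal center B cells, fell by 0.70 and 0.32 on the log2 scale, with Cre control over WT values of 0.24 and 0.39. The summed level of the 19 listed autosomal genes was 4783 to 5607 CPM in ImuBcl6 D370Y and 6192 to 6874 CPM in D370Y.

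Dark zone and light zone genes, which mark the proliferating and the selecting compartments, gave 7 of 15 lower with 2 higher, and 5 of 19 lower with 5 higher. Memory B cell genes gave 9 of 22 lower and 5 higher. Between Cre control and WT, dark zone genes gave 10 lower and 1 higher, and light zone genes 3 lower and 11 higher. Memory genes gave 15 lower and 2 higher there. The repressor gene Zbtb32 was at 18.3, 25.6, 58.2, 25.8 and 24.2 CPM in ImuBcl6 D370Y and at 10.02, 13, 9.29, 11.4 and 9.36 CPM in D370Y, with no overlap (1.33 ± 0.22, limma adjusted p = 0.000189). Its Cre control over WT value of 0.54 left it outside the separated genes. Cr2, encoding complement receptor 2, fell by 1.41 on the log2 scale, and by 2.01 for Cre control over WT.

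Plasma cell genes gave 7 of 17 lower and 1 higher, with a median of -0.12. Between Cre control and WT, 8 were lower and 2 higher, with a median of -0.26. Besides Sdc1 and Prdm1, the plasma cell genes included Cd93, which plasma cells need for long survival. Cd93 was at -1.76 ± 0.12, beside -0.50 for Cre control over WT. Irf4, a regulator of plasma cell differentiation, was at 36.7, 67, 66.3, 58.1 and 59.4 CPM in ImuBcl6 D370Y and 85.9, 106, 83.7, 85.1 and 75.7 CPM in D370Y. For ImuBcl6 over WT, Prdm1 was at -0.13 and Irf4 at -0.11, and neither was called. The difference between the effects with and without D370Y was not called for either gene.

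Of 13 BCL2 family genes tested, 3 were lower and 2 higher, smaller shares than the 31.8% and 21.9% over all genes tested. Bmf, a pro-apoptotic BH3-only gene, was at 14.9 to 19.1 CPM in ImuBcl6 D370Y and 27.4 to 56.3 CPM in D370Y (-1.13 ± 0.15), while Cre control over WT was 0.50. The p53 and DNA damage genes gave 8 of 18 lower and none higher, including the checkpoint kinase genes Atm (-0.69) and Atr (-0.84), which fell by 2.66 and 2.77 on the log2 scale in Cre control over WT. Of the same 18 genes, 9 were lower and 3 higher between Cre control and WT.

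Interferon response genes leaned higher, with 10 of 22 higher and 1 lower and a median of 0.28. Of the 17 that could be tested between Cre control and WT, 5 were higher and 3 lower, with a median of 0.05. Iigp1, an interferon-inducible GTPase gene, was at 10.4, 8.11, 11.1, 6.16 and 6.31 CPM in ImuBcl6 D370Y and at 3.39, 1.01, 1.15, 0.350 and 1.98 CPM in D370Y (1.95 ± 0.26, limma adjusted p = 2.57e-05). Gbp2, encoding a guanylate-binding protein, was at 27.6 to 38.4 CPM in ImuBcl6 D370Y and 12.1 to 20.01 CPM in D370Y (1.06 ± 0.12), and its Cre control over WT value was -0.98. Only 3 of the 22 lay higher with no overlap between the groups, a smaller share than the 16.3% over all genes tested. For ImuBcl6 over WT, 16 of 22 were higher and none lower.

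Lists of growth and metabolism genes leaned higher. Cytosolic ribosomal protein genes had 15 of 20 higher with a median of 0.60, and 15 of 20 higher with a median of 0.82 for Cre control over WT. Only 3 of the 20 were of distinct sequence. MYC and ribosome biogenesis genes had 14 of 20 higher, glycolysis genes 9 of 16, nuclear oxidative phosphorylation genes 11 of 19 and G1/S and replication genes 13 of 20. Between Cre control and WT the same lists had 13 MYC and ribosome biogenesis, 9 glycolysis, 17 oxidative phosphorylation and 15 G1/S genes higher. For ImuBcl6 over WT they had 14 MYC and ribosome biogenesis, 11 glycolysis, 5 oxidative phosphorylation and 10 G1/S genes higher. Among glycolysis genes of distinct sequence, 2 of 9 were higher. Tpi1, a glycolytic enzyme gene of distinct sequence, was at 421 to 581 CPM in ImuBcl6 D370Y and 206 to 276 CPM in D370Y (1.01 ± 0.09), beside 0.62 for Cre control over WT. Cdc6, which loads the replicative helicase, was at 108 to 117 CPM in ImuBcl6 D370Y and 72.3 to 85.6 CPM in D370Y (0.46 ± 0.06), beside 0.32 for Cre control over WT.

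Immediate early and handling genes were higher in 8 of 16 and lower in 4, and between Cre control and WT 12 of 18 were higher and 2 lower. Fosb and Dusp1 rose by 3.52 ± 0.17 and 2.10 ± 0.11, beside 1.90 and 2.20 for Cre control over WT. G2/M and mitotic genes had 5 of 20 higher and 5 lower, and 11 higher and 3 lower after adjustment for GC content and length. NF-kB genes had 4 of 17 higher and 3 lower, and secretory pathway genes 5 of 18 in each direction. B cell receptor signalling genes had 2 of 19 higher and 4 lower, MHC class II genes none of 14 higher and 3 lower, and costimulation and BAFF receptor genes 1 of 14 higher and 6 lower. LXR target genes had 2 of 13 higher and 6 lower, and cholesterol synthesis genes 2 of 18 higher and 7 lower. Between Cre control and WT, costimulation and BAFF receptor genes had none of 14 higher and 8 lower. LXR target genes had 7 of 14 higher and 6 lower there, and cholesterol synthesis genes 8 of 18 higher and 7 lower.

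**Figure D4:**
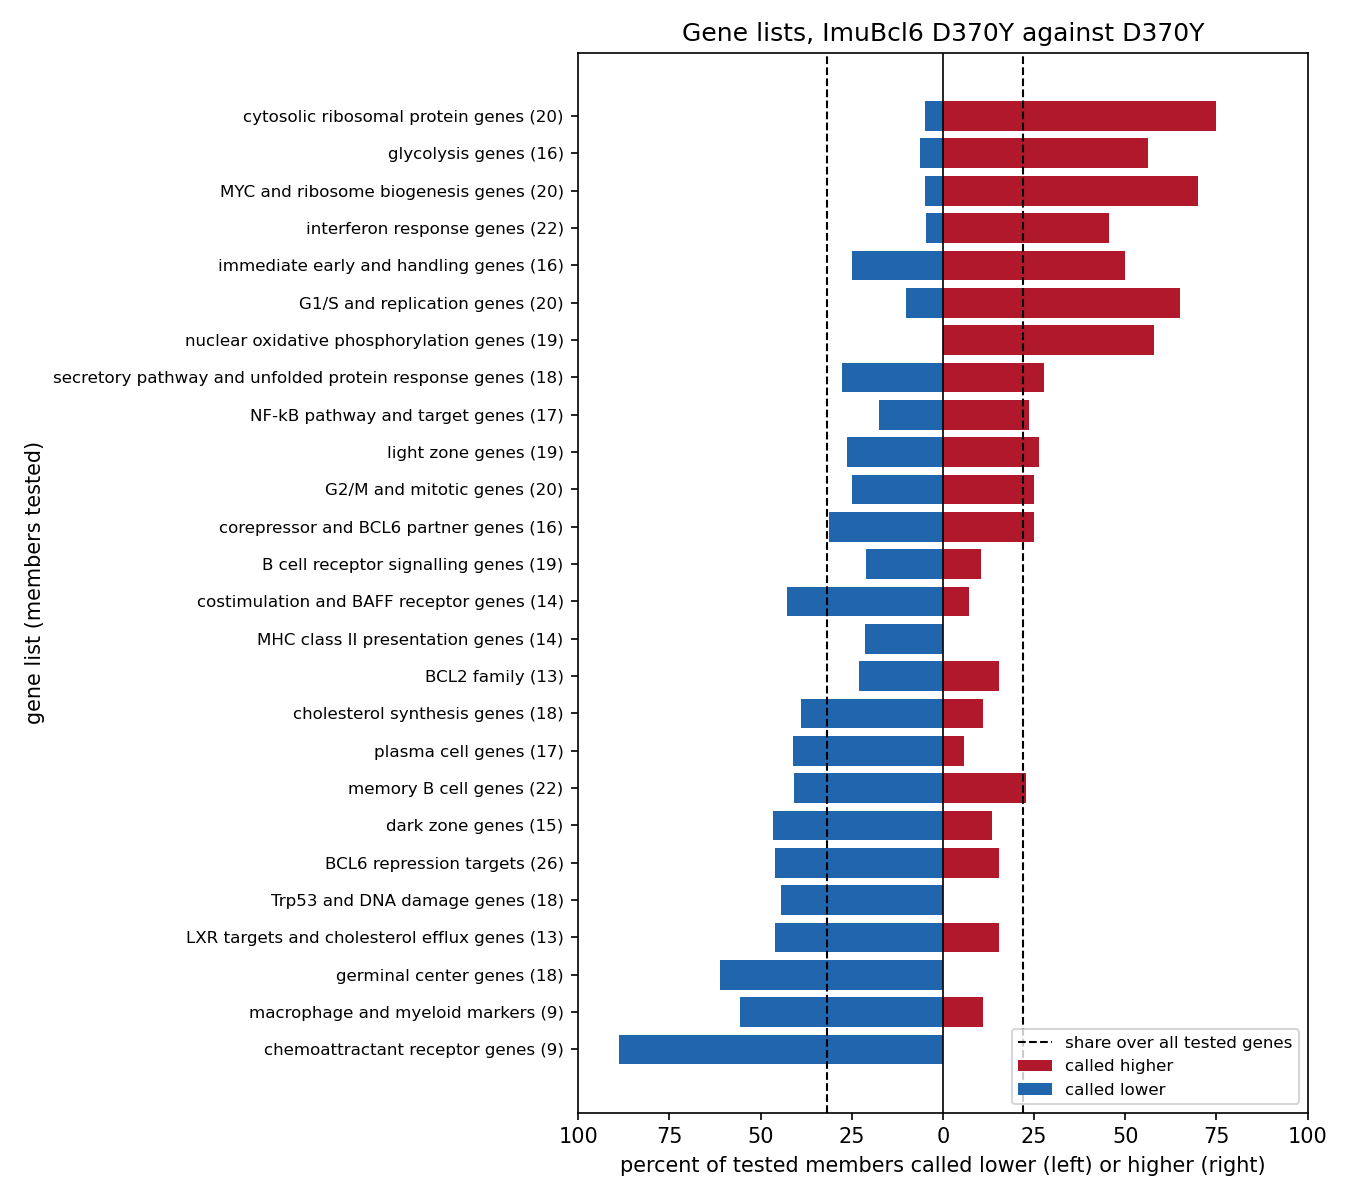
Percent of the tested members of each gene list (y axis, number tested in brackets) called lower (bars to the left) or higher (bars to the right) in ImuBcl6 D370Y against D370Y (x axis); dashed lines give the shares over all genes tested, 31.8% lower and 21.9% higher. Among the lists drawn, chemoattractant receptor genes have the largest lower share, 8 of 9, and cytosolic ribosomal protein genes the largest higher share, 15 of 20.

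The ImuBcl6 difference was also measured without D370Y, from the ImuBcl6 and WT libraries, which share no sample with the 10 above. Limma called 5563 of 10491 genes (53.0%), with 24.8% higher and 28.2% lower in ImuBcl6. Of the genes tested in both, 4137 were called in the same direction, which is 74.5% of the 5556 called with D370Y and 76.1% of the 5436 called without it, and 25 were called in opposite directions. The log2 fold changes had a Pearson correlation of 0.943 over 10318 genes, as a description. These libraries have the opposite sex arrangement and the same split in depth. Cre control and WT libraries, which lack ImuBcl6, were also split in depth (30.0 to 32.0 and 19.0 to 19.4, in 1000000 reads). Across 10167 genes, Cre control over WT had a Pearson correlation of 0.728 with ImuBcl6 D370Y over D370Y. How far the shared calls follow the difference seen between Cre control and WT, and not the ImuBcl6 allele, was not tested.

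The test of the difference between the effects with and without D370Y, in one limma fit of 18 libraries, called 41 of 10751 genes (0.381%), with 3 higher (0.0279%) and 38 lower (0.353%) in the effect with D370Y minus the effect without. At an unadjusted p under 0.05 there were 1327 genes, and DESeq2 called 162. The count rested on single libraries, with 11 to 71 genes called when 1 library was left out. Of 34 lower genes tested in both comparisons, 26 were called higher in ImuBcl6 over WT and 22 were called lower in ImuBcl6 D370Y over D370Y.

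Emp2, which encodes an epithelial membrane protein, was at 1.18, 0.704, 0.824, 1.06 and 0.702 CPM in ImuBcl6 D370Y and at 4.53, 8.34, 4.34, 10.05 and 7.51 CPM in D370Y. It was at 6.42 to 15.3 CPM in ImuBcl6 and 6.78 to 7.83 CPM in WT, so the lower level was seen in the ImuBcl6 D370Y group alone among these 4, and the difference of effects was -2.18. Vopp1 was at 2.89 to 7.12 CPM in ImuBcl6 D370Y and 14.2 to 22.8 CPM in D370Y. Its ImuBcl6 libraries, at 9.73 to 17.4 CPM, reached below WT, at 13.9 to 20.3 CPM. The Cre control libraries, with neither allele, were also below WT for Vopp1, at 7.70 to 11.5 CPM. Reln, encoding the extracellular protein reelin, was at 16.2 to 33.2 CPM in ImuBcl6 D370Y and 32.7 to 54.7 CPM in D370Y, but at 31.5 to 46.1 CPM in ImuBcl6 and 23.7 to 32.1 CPM in WT. Eps8l1, linked to actin remodelling, was at 7.61 to 12.4 CPM in ImuBcl6 D370Y and 8.76 to 17.2 CPM in D370Y, and was not called there (limma adjusted p = 0.130). It was at 3.07 to 9.71 CPM in ImuBcl6 and 22.4 to 24.6 CPM in WT, which gave a difference of effects of 1.79. The D370Y and WT ranges of Eps8l1 themselves do not overlap. With 1 library left out, the difference was called in all 18 fits for Emp2 and Eps8l1, in 8 for Vopp1 and in 6 for Reln.

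**Figure D5:**
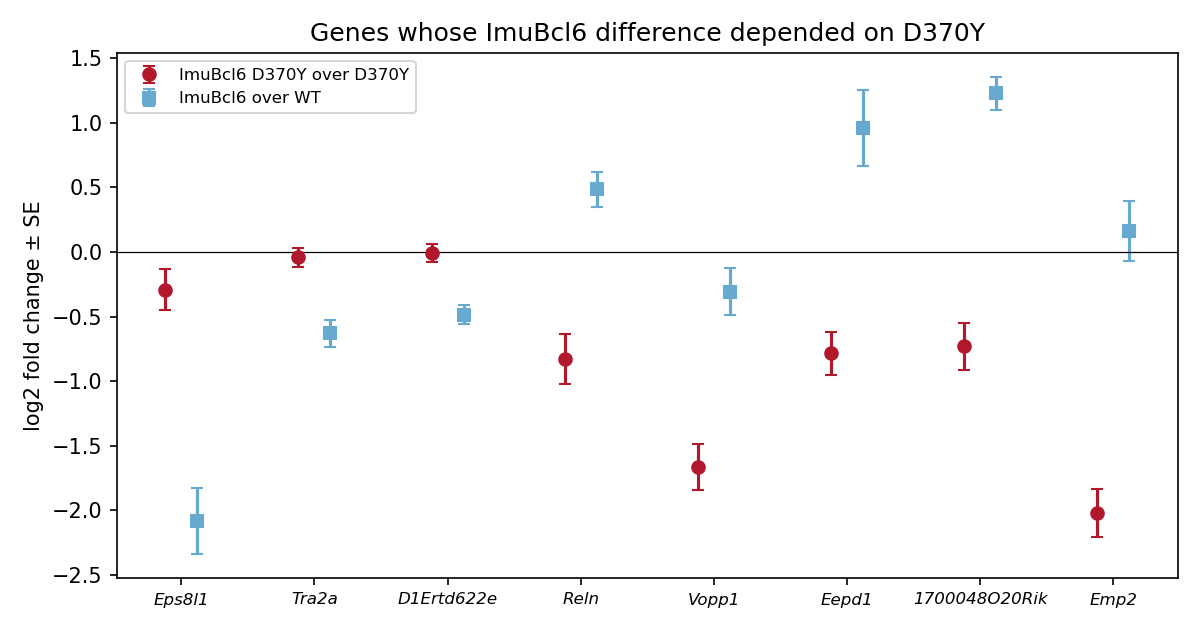
Log2 fold change with its SE (y axis) of 8 genes (x axis) for ImuBcl6 D370Y over D370Y (circles) and ImuBcl6 over WT (squares); the genes are those with the largest called differences in each direction at a mean of at least 5 CPM (3 positive and 5 negative). Emp2 lies at -2.02 with D370Y and 0.16 without, and Eps8l1 at -0.29 with D370Y and -2.08 without.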

How the data were processed

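The libraries hold total RNA of mouse germinal center B cells. The authors deposited CPM, reads of a gene scaled to a fixed library total, per gene symbol for each library; alignment was with STAR to mm10, per the submitters' processing notes, while kit, aligner version, counter, strand setting and annotation are not given in the sources used here. Deposited CPM values were whole multiples of 1 read in 100% of cases within 0.01 read, so reads were recovered for alternatives. A value of 3 reads corresponds to 0.0640 to 0.0749 CPM in ImuBcl6 D370Y and 0.111 to 0.129 CPM in D370Y, and such limits cover counting error only. Of 23382 listed symbols, 23145 were matched to GENCODE M21 and RefSeq, and 22103 were autosomal.

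Values were tested on log2(CPM + 1) with limma 3.58.1 (trend and robust, R 4.3.3) over genes with at least 1 CPM in 5 libraries (3 for ImuBcl6 over WT), with Benjamini-Hochberg adjustment and a threshold of 0.05. A fold change on this scale understates the change of low genes. edgeR 4.0.16 and DESeq2 1.42.0 on recovered reads were alternatives. In simulated reads for ImuBcl6 D370Y against D370Y, 83% of 1.5-fold and 100% of 2-fold changes were recovered over 10389 genes. The named genes were Bcl6 and Tbl1xr1, the 12 largest rises and falls at a mean of at least 5 CPM, up to 4 called members per list, 8 genes called in both comparisons and up to 10 genes of the difference of effects, of which 8 qualified; others were chosen after their values were seen, and a few genes are not reported here. The members and lists were chosen with earlier results of these data known. The rules for distinct sequence, GC content and length, Cre control and separated genes were added after the data were seen. No pair of libraries agreed within sampling noise. The 5 libraries of Tbl1xr1 knockout cells were not used.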

Additional observations from a re-analysis of the deposited data

Results flagged for a closer look

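Over 126 genes chosen by the naming rule, each examined in both groups of 5 libraries, there were 12 cases in which 1 library lay farther from the rest than Dixon's 95% critical value of 0.710 allows, where chance alone would give about 12.6 such cases (1 in 20). In ImuBcl6 D370Y, replicate 3 was the highest for Cdkn1b (13.25 CPM), Odc1 (279.4 CPM) and Bcl2a1d (13.48 CPM), and the lowest for Foxo1 (139.6 CPM). Replicate 1 was the highest for Slc15a2 (3.758 CPM) and the lowest for Irf4 (36.71 CPM). Replicate 4 was the highest for Nop56 (152.2 CPM), and replicate 5 the lowest for Ccr7 (6.104 CPM). In D370Y, replicate 4 was the highest for Mki67 (2006 CPM) and Tnfaip3 (46.57 CPM). Replicate 1 was the highest for Degs2 (0.03684 CPM) and the lowest for Vcam1 (3.758 CPM).

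The limma test of the difference between the ImuBcl6 effects with and without D370Y called 41 genes, of which 8 were named, as the largest in each direction at a mean of at least 5 CPM. On the log2 scale the difference of effects was 1.792 for Eps8l1, 0.5859 for Tra2a, 0.4766 for D1Ertd622e, -2.18 for Emp2, -1.96 for 1700048O20Rik, -1.744 for Eepd1, -1.357 for Vopp1 and -1.313 for Reln. The sex arrangement and D370Y cannot be told apart in these differences. The library sets were not tested as a part of them.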

How the results depend on the processing

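Of 129 named genes, 116 kept their direction and their side of the threshold under all 22 alternatives. On recovered reads edgeR called 5487 genes and DESeq2 5694 between ImuBcl6 D370Y and D370Y. Leaving out 1 library at a time gave 5103 to 5490 genes called between ImuBcl6 D370Y and D370Y, 4279 to 6180 between ImuBcl6 and WT, 3464 to 4423 called in both in the same direction and 11 to 71 for the difference of effects. Restricting to genes of distinct sequence gave 3582 calls (1079 higher), 3538 for ImuBcl6 against WT and 2519 in both, over 7096 and 7154 genes, fewer genes being tested. The difference of effects had 162 calls with DESeq2, 74 over all listed genes and 26 with no low-value filter; the cause was not tested. After GC and length adjustment the Tbl1xr1 difference was -0.094 and no longer called, and Malt1 reversed to 0.33, still called.

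Tra2a and D1Ertd622e, near 0 as reported, changed sign without being called, except where stated. Tra2a was at 0.019 with DESeq2, 0.093 after GC and length adjustment, 0.015 with TMM, 0.021 with edgeR and -0.074 to 0.015 with 1 library left out. D1Ertd622e was at 0.010 over listed-gene reads, 0.044 with DESeq2, 0.60 (called) after GC and length adjustment, 0.047 with TMM, 0.046 with edgeR, 0.019 in thinned libraries, and -0.036 to 0.039 with 1 library left out. The cause was not tested.

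The replicate numbers did not pair the libraries: same-numbered deviations correlated at 0.130, 0.032, 0.063, 0.091 and 0.00004. With the replicate block the calls were 5602 (2263 higher, 3339 lower), 4962 for ImuBcl6 against WT, 31 for the difference of effects and 3741 in both, with Bcl6 at 0.36 and Tbl1xr1 at -0.56.

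Depth differed between the groups, and thinning to 19.2 (in 1000000 reads) gave 5499 calls. Sex and ImuBcl6 cannot be told apart between ImuBcl6 D370Y and D370Y, and the sex arrangement is the opposite between ImuBcl6 and WT. In the difference of effects, sex and D370Y therefore cannot be told apart.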
